A study of Mus musculus with 3 samples.

Results

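The 10 Notch pathway genes described here are 4 receptors (Notch1, Notch2, Notch3 and Notch4), 4 ligands (Jag1, Jag2, Dll1 and Dll4) and 2 target genes (Hes1 and Hey1). They were taken by symbol from a table of 34591 genes, and all 10 had a row. The table holds messenger RNA read counts of 3 libraries of 4T1 cells, an established mouse breast cancer line, of the genotype WISP2 OE, in which WISP2, a secreted matricellular protein, was over-expressed. All 3 libraries form 1 group; the empty-vector 4T1 controls named in the design text were not analysed here, so no effect of WISP2 on Notch genes was estimated. The treatment text describes vector packaging in 293FT cells, transduction and puromycin selection, but for Wisp1 constructs, and says neither how the WISP2 cells were made nor whether they are a clone or a pool. Column suffixes name the libraries (C1, C2 and C3), since no column matches a sample title, and carry no order. They held 17630755, 67028365 and 47577315 counts, so 1 count was worth 0.0567, 0.0149 and 0.0210 CPM (counts scaled to a common library total).

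Notch signalling passes between touching cells. A ligand of the Jagged or Delta-like family on one cell pulls on a Notch receptor on its neighbour; an ADAM protease and then gamma-secretase cut the receptor, and the freed intracellular domain enters the nucleus, where it turns the DNA-binding protein RBPJ and its Mastermind partners into an activator. The Hes and Hey genes are the best known targets and encode basic helix-loop-helix repressors. In the mammary gland the pathway takes part in the choice between luminal and basal fates, and in breast tumours both receptors and Jagged ligands have been studied in tumour growth and spread.

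Of the 10 genes 7 reached 1 CPM in every library, against 33.8% of all genes in the table. The exceptions were Notch3, Notch4 and Hey1. Levels of different genes are compared per length, as CPM per kb of exon, and their error is the SD over 3 libraries. Exact 95% binomial (Clopper-Pearson) intervals on single libraries cover counting error only. The labels do not say that separate cultures were used, so the spread over libraries may be technical. In RNA from bulk cells, fewer cells expressing a gene and less RNA per cell cannot be told apart.

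**Figure D1:**
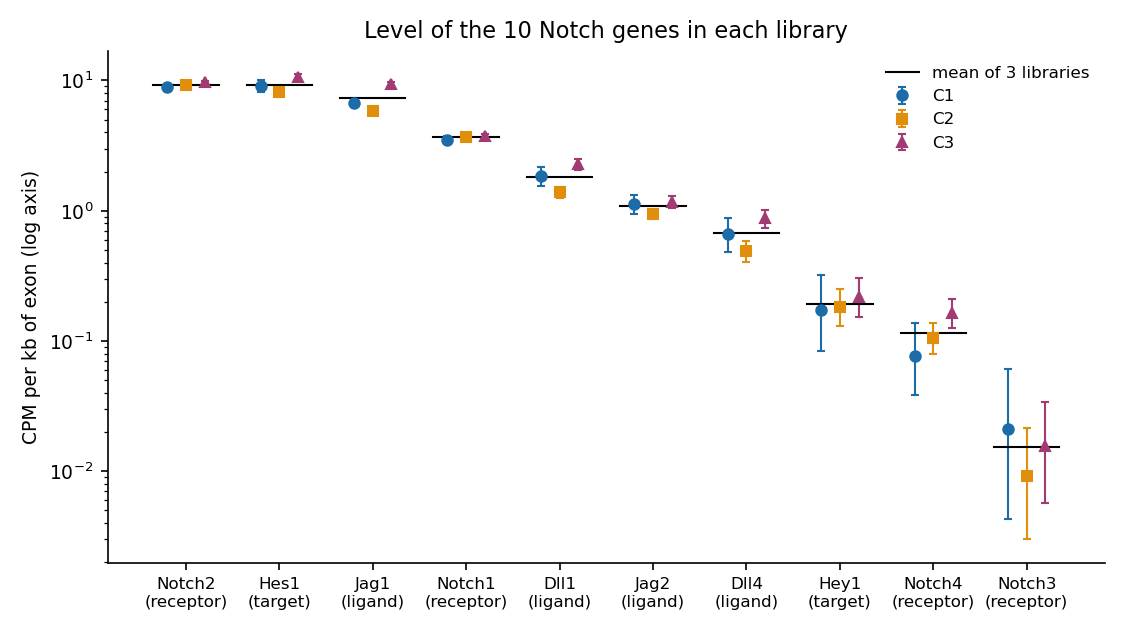
Level of each Notch gene in CPM per kb of exon (log axis) in libraries C1, C2 and C3, with exact 95% counting intervals as bars and the mean of the libraries as a black line. Notch2 and Hes1 stand highest at 9.28 and 9.23 CPM per kb, and Notch3 lowest at 0.0153.

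Notch2 was the most abundant of the receptors. It stood at 96.3 (C1), 99.9 (C2) and 104 CPM (C3), with a mean of 100.1 ± 3.91 CPM (SD, n = 3), or 9.28 ± 0.363 CPM per kb, above 53.0% of the 10560 genes that reached 1 CPM in every library and had a length. The libraries lay close together. Notch1, the receptor best known from T-cell development and leukaemia, stood at 50.1 (C1), 52.9 (C2) and 52.9 CPM (C3), with means of 52.0 ± 1.63 CPM and 3.65 ± 0.115 CPM per kb. It was thus also steady, with a coefficient of variation of 3.14% against 3.91% for Notch2. Within libraries Notch2 exceeded Notch1 by 1.35 ± 0.03 on the log2 scale per length (2.54-fold) in 3 of 3 libraries. The size of this ratio depended on the exon length used, because the summed exons of Notch1 (14232 bases) are much longer than its longest transcript (9488 bases), and it was 1.74-fold with longest transcripts.

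The other two receptors had few counts. Notch4, which is mainly known from endothelial cells, had 11, 57 and 63 counts in the libraries C1, C2 and C3, which is 0.624, 0.850 and 1.32 CPM. The interval of C3 (1.02 to 1.69 CPM) overlapped that of C2 (0.644 to 1.10) and that of C1 (0.311 to 1.12). Notch3, typical of vascular smooth muscle and pericytes, had 3, 5 and 6 counts, or 0.170, 0.0746 and 0.126 CPM, and its 3 intervals overlapped as well. Of the summed per-length level of the receptors, Notch2 made up 71.1% ± 0.27, Notch1 28.0% ± 0.48, Notch4 0.878% ± 0.304 and Notch3 0.118% ± 0.049. Counted on longest transcripts the share of Notch2 was 62.9%, and that of Notch1 36.1%.

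The promoters of the receptors at the ends of this range are shown to compare their content of CpG dinucleotides, which is high in CpG island promoters. The windows run from 250 bases before to 50 after the annotated start, from RefSeq on GRCm38.p6, and capitals mark each CG. The windows are Notch2 at chr3:98013288-98013587 on the plus strand, Notch3 at chr17:32166841-32167140 on the minus strand and Notch4 at chr17:34564045-34564344 on the plus strand.
Notch2: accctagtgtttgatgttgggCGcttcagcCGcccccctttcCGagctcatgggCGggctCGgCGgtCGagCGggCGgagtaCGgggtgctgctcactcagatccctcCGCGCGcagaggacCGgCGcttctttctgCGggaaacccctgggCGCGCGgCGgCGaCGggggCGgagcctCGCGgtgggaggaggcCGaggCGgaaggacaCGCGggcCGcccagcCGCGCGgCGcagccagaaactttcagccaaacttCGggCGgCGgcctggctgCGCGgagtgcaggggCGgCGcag
Notch3: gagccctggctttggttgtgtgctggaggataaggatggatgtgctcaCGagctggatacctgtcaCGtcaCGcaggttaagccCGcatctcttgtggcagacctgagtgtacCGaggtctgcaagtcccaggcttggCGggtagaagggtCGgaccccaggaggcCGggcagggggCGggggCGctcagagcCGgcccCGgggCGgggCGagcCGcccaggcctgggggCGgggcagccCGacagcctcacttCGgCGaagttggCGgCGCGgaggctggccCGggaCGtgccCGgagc
Notch4: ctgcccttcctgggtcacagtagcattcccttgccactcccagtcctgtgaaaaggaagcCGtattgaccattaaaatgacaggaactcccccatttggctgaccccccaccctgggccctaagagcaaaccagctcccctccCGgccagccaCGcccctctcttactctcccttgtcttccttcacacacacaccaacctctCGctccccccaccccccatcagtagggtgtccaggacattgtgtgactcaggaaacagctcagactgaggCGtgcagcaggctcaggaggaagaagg
The Notch2 window held 41 CpG, more than 96.5% of the 32851 promoter windows in the table, the Notch3 window 25 (more than 81.6%) and the Notch4 window 5 (more than 38.0%), against a median of 7. Notch1 had 23. Notch2 had both the most CpG and the highest level of the receptors, whereas Notch3 had about as many CpG as Notch1 and far fewer counts. A relation of CpG content to level was not tested. Entries were found for 8 of the 10 genes (9 windows, 2 of them for Dll1), and not for Hes1 and Hey1.

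Jag1 was the most abundant ligand. It stood at 39.4 (C1), 34.0 (C2) and 54.5 CPM (C3), with means of 42.6 ± 10.6 CPM and 7.32 ± 1.82 CPM per kb. C3 was the highest, and the intervals of the 3 libraries (36.5 to 42.5, 32.6 to 35.5 and 52.4 to 56.6 CPM) did not overlap one another. Jag2, the second Jagged ligand, stood at 7.83 (C1), 6.58 (C2) and 8.16 CPM (C3), with means of 7.52 ± 0.831 CPM and 1.08 ± 0.119 CPM per kb. Jag1 exceeded it by 2.74 ± 0.23 on the log2 scale per length (6.66-fold) in 3 of 3 libraries.

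Both Delta-like ligands were detected at lower levels than Jag1. Dll1 lay above Jag2 per length (1.67-fold, in 3 of 3 libraries), but level with it without division by length (1.01-fold). Dll1, a ligand with roles in somite and stem cell signalling, stood at 7.77 (C1), 5.83 (C2) and 9.58 CPM (C3), with means of 7.73 ± 1.88 CPM and 1.83 ± 0.445 CPM per kb. Dll4, the ligand of endothelial tip cells, stood at 2.55 (C1), 1.88 (C2) and 3.36 CPM (C3), with means of 2.60 ± 0.743 CPM and 0.675 ± 0.193 CPM per kb. Both were lowest in C2 and highest in C3, and for both the interval of C3 lay above that of C2 (8.72 to 10.5 against 5.27 to 6.44 CPM for Dll1, and 2.86 to 3.93 against 1.57 to 2.24 CPM for Dll4). In the annotation, 20.6% of the exon bases of Dll1 lie opposite a long non-coding RNA, A930024N18Rik, which had 5, 13 and 15 counts against 137, 391 and 456 for Dll1; whether the counting used strand is not stated.

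Jag1 made up 67.0% ± 1.7 of the summed per-length level of the ligands, Dll1 16.8% ± 0.88, Jag2 10.1% ± 1.3 and Dll4 6.13% ± 0.43. Their shares moved less between libraries than their sum: Jag1 ranged from 65.1% to 68.4%. The summed ligands stood at 10.4 (C1), 8.66 (C2) and 13.7 CPM per kb (C3), and the summed receptors at 12.5, 13.1 and 13.6. The ratio of ligands to receptors per length was 0.828 (C1), 0.661 (C2) and 1.01 (C3).

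**Figure D2:**
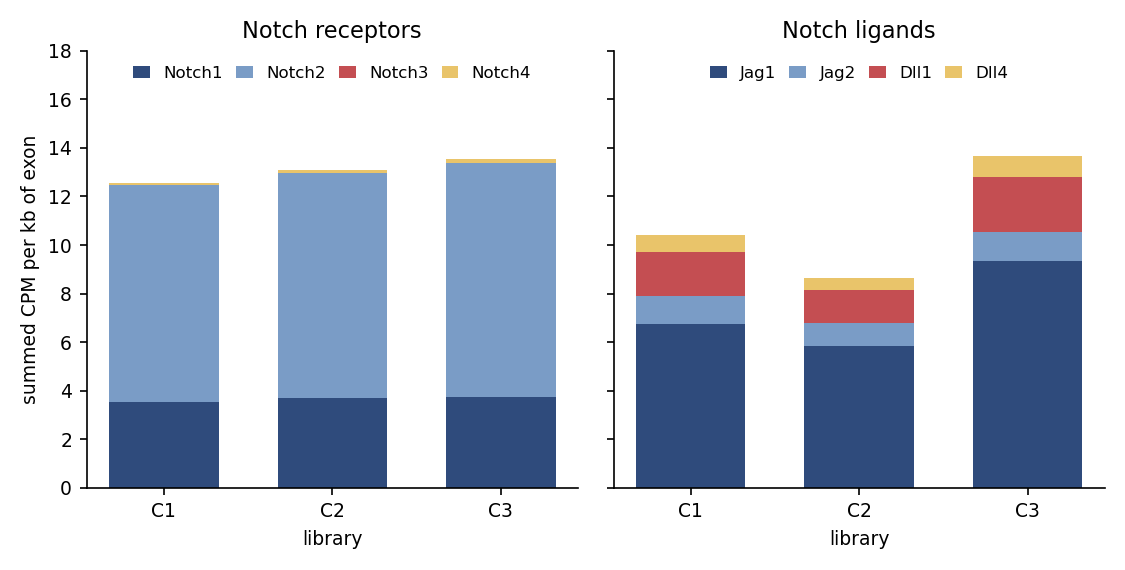
Summed level of the receptors (left) and of the ligands (right) in each library, in CPM per kb of exon, with the share of each gene stacked from 0. The receptors reach 12.5 to 13.6 in the libraries and the ligands 8.66 to 13.7, with Jag1 and Notch2 as the largest parts.

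The targets lay far apart. Hes1, a repressor that oscillates in many progenitor cells, stood at 18.4 (C1), 16.5 (C2) and 21.5 CPM (C3), with means of 18.8 ± 2.52 CPM and 9.23 ± 1.24 CPM per kb. Like the ligands it was highest in C3, where its interval (20.2 to 22.8 CPM) lay above that of C2 (15.5 to 17.5). Hey1, a repressor known from heart and vessel development, had 10, 40 and 34 counts, or 0.567, 0.597 and 0.715 CPM (0.626 ± 0.078 CPM), and its intervals overlapped. Hes1 exceeded Hey1 by 5.55 ± 0.09 on the log2 scale per length (46.9-fold) in 3 of 3 libraries.

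Ordered by level per length, the genes ran from Notch2 through Hes1, Jag1, Notch1, Dll1, Jag2, Dll4, Hey1 and Notch4 to Notch3. Neighbours were taken to differ where the order was the same in 3 of 3 libraries and the mean log2 ratio was larger than its SD; the smallest p of an exact sign-flip test on 3 libraries is 0.25, and no such test was made. Of the 9 neighbouring pairs 8 met this. Notch2 and Hes1 did not (0.02 ± 0.16 on the log2 scale, Notch2 higher in 1 of 3 libraries). This call turned on the length used: the log2 ratio of Notch2 to Hes1 was -0.42 (0.748-fold) with longest transcripts, where 9 of the 9 pairs met the criterion, and 2.42 (5.35-fold) without division by length, where 7 did. The smallest step that did was from Hes1 to Jag1 (0.36 ± 0.16, 1.28-fold), and the largest was from Notch4 to Notch3 (2.80 ± 0.94, 6.97-fold), where Notch3 rests on 14 counts in all. Without division by length 3 of these steps turned around: Jag1 then lay above Hes1, Notch1 above Jag1 and Notch4 above Hey1.

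The libraries lay further apart for the ligands and Hes1 than for Notch1 and Notch2; this contrast between genes was not tested. From C2 to C3 the level was 1.79-fold higher for Dll4, 1.64-fold for Dll1, 1.60-fold for Jag1, 1.56-fold for Notch4, 1.30-fold for Hes1, 1.24-fold for Jag2 and 1.20-fold for Hey1, but only 1.04-fold for Notch2 and 1.00-fold for Notch1. Of the 9 genes that passed the filter on low counts (all but Notch3), 4 were at least 1.5-fold higher in C3 than in C2, against 1.87% of all 13026 genes tested; this fold and this pair of libraries were chosen after the values were seen. Of these 4, Notch4 rests on 57 counts in C2 and 63 in C3, and its intervals overlapped. Against C1 in place of C2, 1 of the 9, Notch4, was 1.5-fold higher in C3, against 2.28% of genes. All 9 had their highest level in C3, as did 34.0% of all genes tested. Only for Jag1 did the counting interval of C3 lie above those of C1 and C2. For each of the others it overlapped that of the next highest library. The order C3 above C1 above C2 held for 5 of the 9 (Jag1, Jag2, Dll1, Dll4 and Hes1), against 18.9% of genes. Only for Jag1 were the intervals of all 3 libraries separate. For Jag2, Dll1, Dll4 and Hes1 that of C1 overlapped that of C3, so their full order is within counting error. Genes of 1 library are measured on the same RNA, so these counts describe the libraries and are not independent pieces of evidence.

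**Figure D3:**
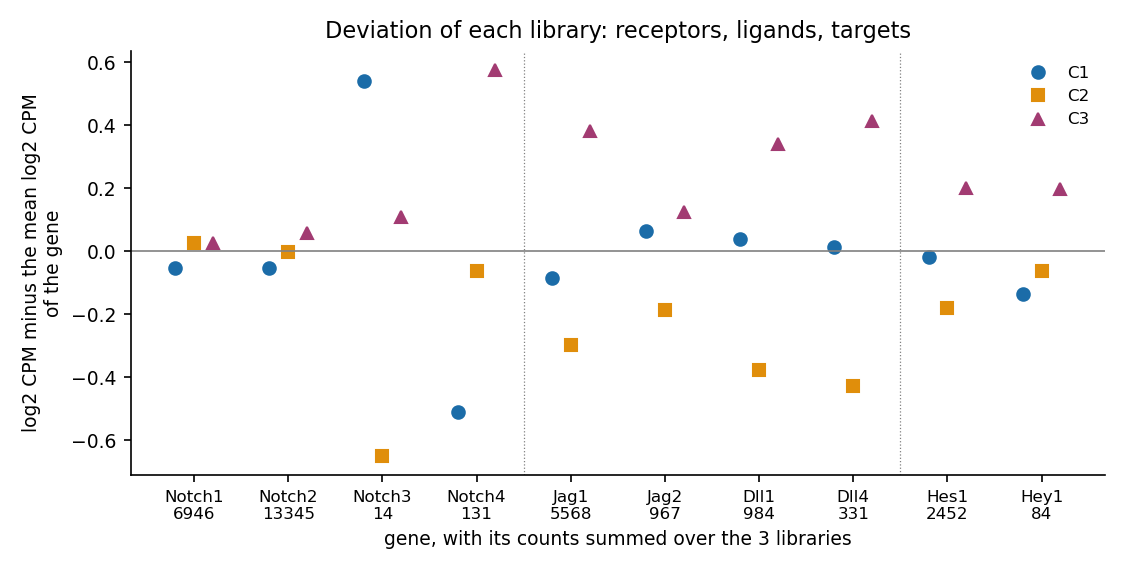
Log2 CPM of each gene in C1, C2 and C3 relative to the gene's own mean of log2 CPM, with receptors, ligands and targets set apart by dotted lines and the summed counts under each name. The ligands and Hes1 sit highest in C3 and lowest in C2, from 0.41 to -0.43 for Dll4, while Notch1 and Notch2 stay within 0.06 of their mean and Notch3 rests on 14 counts.

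Tested against counting noise alone (Poisson dispersion test, Benjamini-Hochberg over 13026 genes), 7 of the 9 genes varied between libraries, against 39.3% of all genes tested. The adjusted p of this chi-square test was 1.99e-60 for Jag1, 3.18e-11 for Dll1, 4.40e-08 for Hes1, 2.77e-05 for Dll4, 0.0165 for Jag2, 0.0171 for Notch2 and 0.0289 for Notch4. Notch1 (0.419) and Hey1 (0.765) did not pass. The count of 7 fell to 2 without C2 (Jag1 and Notch2) and to 2 without C3 (Jag1 and Dll1), and was 7 without C1, the shallowest library. The count over all genes also fell, from 5118 of 13026 to 1761 of 12774 without C2 and 1667 of 12970 without C3. It was 4908 of 13337 without C1.

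Tested against genes of similar level (edgeR quasi-likelihood F test), none of the 9 passed after adjustment over all genes, and 0.0691% of all genes did. Before adjustment 4 of the 9 had p under 0.05, against 5.15% of all genes: in edgeR the unadjusted p was 0.000233 for Jag1, 0.00733 for Dll1, 0.0265 for Dll4 and 0.0396 for Hes1, with adjusted p of 0.112, 0.577, 0.860 and 0.929. Jag1 had 23.9 times the dispersion of genes of its level, and 26 of the 13026 genes had a larger ratio. The ratios of Notch2 (0.894) and Notch1 (0.413) were under 1. Of all genes tested, 44.0% had a larger ratio than Notch2 and 67.6% a larger ratio than Notch1. The call for Jag1 turned on the settings of the edgeR test: its adjusted p was 0.00965 without C1, 0.0487 without C2, 0.978 without C3, 6.50e-07 without the filter on low counts (where Dll1 also passed, at 0.0294) and 0.996 with a robust prior. The ratio of Jag1 changed little, to 20.8 without the filter and 23.7 with a robust prior. With that prior Dll1 had a smaller ratio (8.86) and yet a smaller unadjusted edgeR p (0.0297 against 0.254 for Jag1). The p under that prior therefore does not rank these genes by spread.

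**Figure D4:**
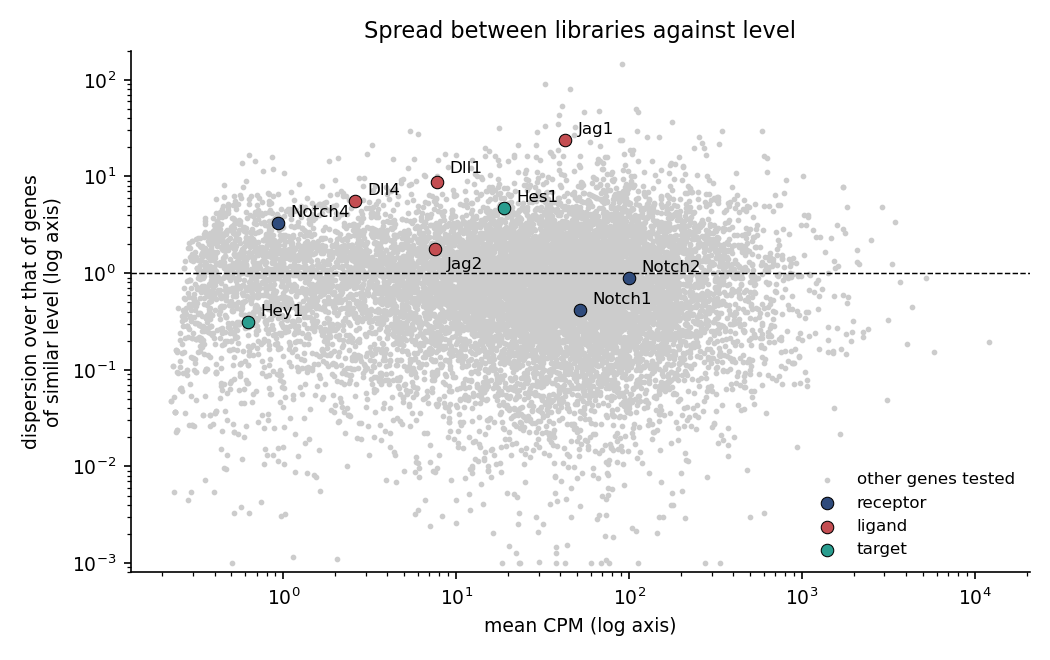
Quasi-likelihood dispersion between libraries, divided by that of genes of similar level (log axis, the dashed line marks 1), against mean CPM (log axis) for 13026 genes in grey, with 9 Notch genes in colour by role. Values under 0.001 (11 genes) are drawn at 0.001; Jag1 lies highest of the coloured points at 23.9 and Hey1 lowest at 0.312.

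The genes whose library pattern lay nearest to that of Jag1, among 4542 genes within 2-fold of its mean level, were Sfn, Bmp7 and Sdc3. Sfn, which encodes the epithelial 14-3-3 sigma protein, stood at 36.8 (C1), 31.2 (C2) and 48.2 CPM (C3). Bmp7, a secreted growth factor, stood at 34.3, 29.7 and 44.7 CPM, and Sdc3, a cell-surface heparan sulfate proteoglycan, at 39.0, 34.7 and 51.3 CPM. Likeness was the Euclidean distance between log2 deviations over 3 libraries (0.0553, 0.0697 and 0.0808), which is few points, and is a description only.

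Around the 10 genes, 70 other genes of the pathway were examined in 10 lists by role, and 54 of them reached 1 CPM in every library. Their median level was 6.02 CPM per kb, that of the 10 Notch genes 1.46, and that of all genes past the filter 7.12. The medians of the 70 and of the 10 genes also cover genes that did not pass the filter, so the last is not like for like. Of the 58 other pathway genes that were tested, 30 varied beyond counting noise, where 39.3% of all genes did. None passed the edgeR test against genes of similar level (0.0691% of all genes did), and 4 had an unadjusted p under 0.05 (Dlk2, Tle2, Hey2 and Cdkn1a), a share near the 5.15% of all genes. Their median difference between C3 and C2 was 0.04 on the log2 scale, against 0.38 for the 9 tested Notch genes and 0.00 for all genes.

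Genes that modify and cut the receptors were detected. In the lists that follow, the genes with the most CPM are named; CPM is not corrected for length, so values of different genes are not compared. Of 5 glycosylation genes 4 reached 1 CPM: Poglut1 (77.6 ± 3.50 CPM) and Pofut1 (58.9 ± 1.54 CPM), which add O-glucose and O-fucose to the receptor's EGF repeats, and the Fringe enzymes Rfng (16.0 ± 0.623 CPM) and Lfng (13.2 ± 1.82 CPM), which extend the fucose and shift the choice of ligand. Mfng, the remaining Fringe, had 1, 1 and 4 counts. Of 10 cleavage genes 9 reached 1 CPM, among them the sheddases Adam10 (163 ± 11.9 CPM) and Adam17 (123 ± 2.13 CPM), the furin protease gene Furin (105 ± 8.10 CPM) and Ncstn (89.4 ± 4.51 CPM), a gamma-secretase subunit. None of the tested genes of either list was 1.5-fold higher or lower in C3 than in C2. Such differences were rare over all 13026 genes tested, with 244 higher and 175 lower.

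Nuclear partners were also expressed. Rbpj stood at 279 ± 8.63 CPM (21.9 CPM per kb), and of its activator list 9 of 10 genes reached 1 CPM, with the acetyltransferases Kat2a (136 ± 9.33 CPM) and Ep300 (87.2 ± 5.59 CPM) and the splicing and transcription cofactor Snw1 (113 ± 6.42 CPM) among them. Rbpjl, the pancreatic paralog of Rbpj, had 0 counts. All 8 corepressor genes reached 1 CPM, among them Ctbp1 (246 ± 10.3 CPM), Ncor1 (215 ± 9.10 CPM) and Kdm5a (91.7 ± 4.59 CPM). Of the 6 genes of the TLE family 5 did so, including Aes (202 ± 12.9 CPM), Tle3 (48.4 ± 3.72 CPM), Tle1 (27.0 ± 1.38 CPM) and Tle4 (9.69 ± 0.828 CPM).

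All 4 ubiquitin ligases that act on ligands in the signal-sending cell reached 1 CPM, namely Mib1 (181 ± 8.05 CPM), Mib2 (14.2 ± 0.243 CPM), Neurl1b (13.6 ± 0.351 CPM) and Neurl1a (4.54 ± 0.808 CPM); per length Mib1 stood at 16.6 CPM per kb and Mib2 at 3.00. Of 10 genes of receptor turnover and inhibition 9 did so, among them the ubiquitin ligases Itch (109.5 ± 5.10 CPM) and Dtx4 (52.9 ± 3.57 CPM), Dtx3l (40.4 ± 1.31 CPM) and Fbxw7 (28.1 ± 0.517 CPM), which marks the cleaved receptor for degradation. Dtx1 had 1 count in all. Nrarp, a feedback inhibitor and widely used Notch target, stood at 20.7 (C1), 21.0 (C2) and 20.9 CPM (C3). Its libraries did not differ beyond counting noise (Poisson test, adjusted p = 0.980), whereas those of Hes1 did; the difference between the genes was not tested.

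Among other ligands Dlk2, which lacks the receptor-activating domain of the canonical ligands, stood at 38.1 (C1), 29.0 (C2) and 32.3 CPM (C3), with means of 33.1 ± 4.61 CPM and 15.7 ± 2.18 CPM per kb. It was highest in C1, unlike Jag1. Dner had 3, 6 and 1 counts, Dll3 had 2 counts, and Dlk1 had 0. Of the other HES and HEY factors only Hes6 reached 1 CPM in every library (8.42 ± 0.307 CPM). Hey2 (20, 31 and 45 counts) reached 1 CPM in C1 only (1.13 CPM), and Hes7 (4, 16 and 14 counts) in no library. Of the 8 factors 5, among them Hes2, Hes3 and Hes5, had 0 counts, which allows up to 0.170 (C1), 0.0448 (C2) and 0.0631 CPM (C3). Of 5 further genes reported as Notch targets, Ccnd1 (1534 ± 14.0 CPM), Myc (320.1 ± 10.9 CPM), Gata3 (62.4 ± 3.01 CPM) and Cdkn1a (8.26 ± 1.79 CPM) reached 1 CPM, and Snai2 had 0 counts. Each of these answers to several pathways.

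**Figure D5:**
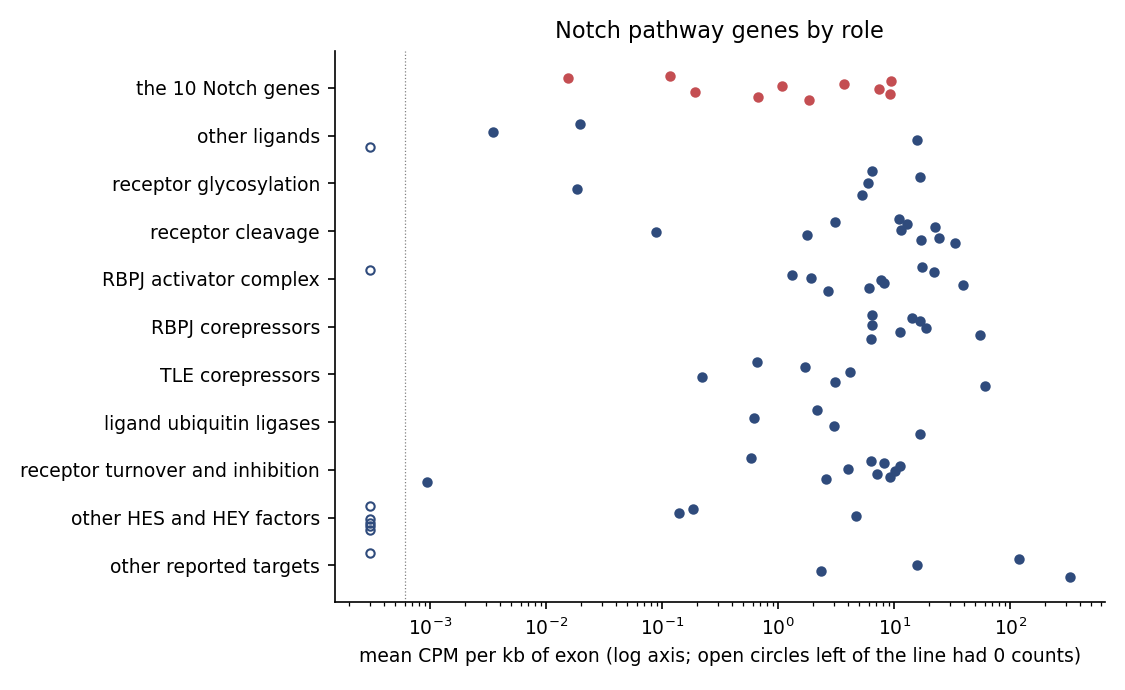
Mean level of each gene in CPM per kb of exon (log axis) over 3 libraries, by role in the Notch pathway, with the 10 Notch genes in red and genes without a count as open circles left of the dotted line. The medians are 12.2 for cleavage genes and 12.8 for RBPJ corepressors against 1.46 for the Notch genes, and 5 of 8 other HES and HEY factors had 0 counts.

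The promoter of Hes5 is shown because it holds the core of the RBPJ binding motif while the gene had no count. Capitals mark the core, TGGGAA, or its reverse complement, TTCCCA, in the window chr4:154960673-154960972 on the plus strand of GRCm38.p6 (RefSeq).
Hes5: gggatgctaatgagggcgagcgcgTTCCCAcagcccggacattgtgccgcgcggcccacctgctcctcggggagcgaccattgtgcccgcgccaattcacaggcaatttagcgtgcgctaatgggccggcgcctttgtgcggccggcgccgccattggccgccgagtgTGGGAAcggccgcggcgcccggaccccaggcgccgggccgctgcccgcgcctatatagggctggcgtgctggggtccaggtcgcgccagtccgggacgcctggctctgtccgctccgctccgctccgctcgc
The Hes5 window held 2 matches, which start 226 and 82 bases before the start site. On both strands, 25.6% of all promoter windows held at least 1 match and 3.79% at least 2. None of the 9 windows of the Notch receptors and ligands held one, nor did that of Nrarp. A match is not a binding site, and no match concerns these letters in this window only.

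The labelled cell type was checked by markers. The epithelial genes Krt8, Krt18, Epcam and Cdh1 reached 1 CPM in all libraries, with a summed level of 2521.8, 2509.7 and 2761.6 CPM in C1, C2 and C3. No endothelial marker of 8 reached 1 CPM: their sum was 0.510, 0.209 and 0.357 CPM in C1, C2 and C3, and Erg was at 0. These sums rest on 9, 14 and 17 counts, and the part of endothelial cells in the levels of Dll4 and Notch4 was not tested. No mural or smooth muscle marker of 6 reached 1 CPM (0.567, 0.433 and 0.189 CPM in sum). Of 7 fibroblast markers only Pdgfra did (18.3 ± 1.03 CPM; Lum and Thy1 were at 0, and the list summed to 19.7, 21.2 and 19.1 CPM), and of 6 leukocyte markers Lyz2 and Cd68 did, with sums of 18.2, 9.37 and 9.56 CPM and Cd3e at 0. The epithelial sum was highest in C3 and lowest in C2 like the ligands, as were Krt8 and Krt18, its most abundant genes. Cdh1 went the other way, at 437 (C1), 463 (C2) and 431 CPM (C3). Epcam was highest in C3 but lowest in C1 (82.0, 89.3 and 101 CPM in C1, C2 and C3). The part of the epithelial sum in the difference of the ligands between libraries was not tested.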

How the data were processed

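Poly(A) RNA of 3 samples was sequenced after a strand-preserving library preparation, per the labels' protocols. The deposited table gives raw read counts per gene symbol, per the file headers and values; CASAVA 1.7, BWA, STAR, HTSeq and mm9 are named in the submitters' processing notes with no role or order. The annotation, strand setting and handling of multi-mapped reads (not given in the sources used here) could move reads between genes, so paralogs such as Aph1b and Aph1c are uncertain. Columns were assigned to the group only.

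CPM used column totals. Exon lengths are unions of exons from GENCODE M21 (GRCm38), used for length and overlap only; all 10 genes matched. Ratios added 0.5 counts. Spread was tested in edgeR 4.0.16 (R 4.3.3) with TMM scaling, filterByExpr (13026 genes), an intercept-only design and Benjamini-Hochberg adjustment at 0.05; the Poisson test used 2 degrees of freedom. The edgeR test compared the quasi-likelihood dispersion with its trended prior. DESeq2 1.42.0 gave alternative size factors.

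The genes and lists were chosen with earlier results of these data known. The text names all 10 genes, the 4 most abundant of each list and up to 3 at 0 counts (1 such gene is not reported here), and the 3 genes nearest in pattern to the most variable one; other genes were named after their values were seen.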

Additional observations from a re-analysis of the deposited data

How the results depend on the processing

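No paired analysis was possible because all 3 libraries belong to 1 group. TMM or DESeq2 scaling and leaving out a library were also tried on the mean levels; the TMM factors ran from 0.998 to 1.00, and a mean without 1 of 3 libraries cannot move by a full SD, so these say little about stability. Length mattered for comparisons between genes. With longest transcripts Notch2 made up 62.9% of receptors and Jag1 63.6% of ligands, and without division by length 65.4% and 70.3%. Without it the log2 ratio of Hes1 to Jag1 became -1.16, that of Jag1 to Notch1 -0.31 and that of Hey1 to Notch4 -0.51. With each library left out, 2 to 7 of the Notch genes and 1667 to 4908 of all genes (5118 with all libraries) passed the Poisson test. In the edgeR test 0 to 1 of the Notch genes and 3 to 52 of all genes (9 with all libraries) passed, and 1 to 4 of the Notch genes had an unadjusted p under 0.05. That test called 14 genes without TMM, 171 without the filter (2 of them Notch genes) and 0 with a robust prior, where 588 genes had an unadjusted p under 0.05. Set against C1 in place of C2, an alternative chosen after seeing the data, 1 Notch gene was 1.5-fold higher in C3. The cause of these changes was not tested, beyond the fewer libraries that leaving one out gives. Depth limits Notch3, Notch4 and Hey1, whose intervals overlapped between libraries.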
